A study of Mus musculus with 8 samples.

Results

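Type I interferon response genes are the genes that cells switch on after interferon-alpha or interferon-beta binds its receptor. The set described here was a list of 48 such genes, drawn up with earlier results of these data known, and each of the 48 matched 1 of the 55416 gene identifiers in the count files. Lung RNA was sequenced from 8 female C57BL/6J mice of 6 to 8 weeks, and all lungs were taken at 24 h. Control mice (n = 3, numbered 1, 2 and 4) received the solvent DMSO by tail vein and then saline into the peritoneum. LPS mice (n = 3, numbered 1, 6 and 7) received LPS, the endotoxin of Gram-negative bacteria, at 35 mg/kg into the peritoneum, and the study describes no other injection for them. Dual-treated mice (n = 2, numbered 2 and 5) received YW3-56, an inhibitor of protein arginine deiminases, PAD4 among them, at 10 mg/kg in DMSO shortly before the same dose of LPS. The methods of the study describe 3 sequenced mice per group, while a figure legend of the study and the labels give 2 with both agents.

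Type I interferons signal through a receptor of IFNAR1 and IFNAR2 chains and the kinases JAK1 and TYK2, which activate STAT2. With IRF9, STAT2 is part of a complex that binds a DNA motif, the interferon-stimulated response element (ISRE), in front of many antiviral genes, whose products sense foreign nucleic acid, degrade RNA, modify proteins or block virus entry. In the lung this program restrains respiratory viruses, and LPS is known to start it as well, since TLR4 can signal through TRAM, TRIF and IRF3 to the gene for interferon-beta.

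The libraries held 19061949, 19796242 and 20527836 counts in control, 20818501, 19379911 and 19279724 in LPS and 19875939 and 20908608 in dual-treated mice. Levels are given as CPM after TMM normalization, always in the order control mice 1, 2 and 4, LPS mice 1, 6 and 7, and dual-treated mice 2 and 5. The label lung was checked on 7 markers of lung epithelium, all of which were detected, with *Scgb1a1* the most abundant. Together they came to 66950.5, 68201 and 73334 CPM in control, 93204, 74979 and 69070.1 CPM in LPS and 40760.3 and 54411 CPM in dual-treated lungs, so that lung transcripts were abundant in all 8 libraries. *Scgb1a1* was the only 1 of the 7 with a log2FC above 0 in LPS lungs. With the dual treatment it was called lower than with LPS (-1.28). *Nkx2-1* went the other way, called lower in LPS lungs and, with the dual treatment, higher than with LPS (1.88). Other markers moved the sum too, such as *Sftpc* at 8528 and 17890 CPM in dual-treated mice 2 and 5. LPS mice 6 and 7 stood apart from LPS mouse 1, because they carried transcripts of squamous epithelium and skeletal muscle. Of 14 squamous markers 13 matched an identifier, and their sum, with *Krt13* the most abundant, was 11.6, 15.4 and 15.4 CPM in control, 1.66, 749.8 and 2108 CPM in LPS and 11.1 and 25.6 CPM in dual-treated lungs. *Krt16*, *Sprr1b*, *Sprr3* and *Crct1* were at 0 in every control library, and *Krt6b*, *Crct1* and *Calm4* were at 0 in both dual-treated libraries. The 12 muscle markers, with *Acta1* the most abundant, summed to 49.1, 148 and 79.6 CPM in control, 87.3, 678 and 1541 CPM in LPS and 32.04 and 31.04 CPM in dual-treated lungs, with *Myh2* at 0 in every control library and *Tnnc2* at 0 in every LPS library. Both sums were thus highest in LPS mice 6 and 7. The median log2FC of the members in the comparisons with LPS lungs is given with and without these mice.

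Of the 48 members, 47 passed edgeR's filter on low counts. The exception was *Trex1*, a nuclease that degrades DNA in the cytosol, with 0 counts in all 8 libraries. In the annotation all of its exon length (chr9:108887001-108888802, 100%) also belongs to *Atrip* or *Shisa5*, and 100% of its stretches of 100 bases occur in *Atrip* transcripts, so that the count of 0 does not measure its RNA. A gene was called higher or lower when edgeR's quasi-likelihood test gave an adjusted p under 0.05 and a fold change over 2. LPS against control asks how the endotoxin alone changed the members, dual treatment against control what remained of a change after YW3-56, and dual treatment against LPS what YW3-56 in its solvent changed. Control and dual-treated mice received DMSO and the LPS mice are described as given LPS alone, so that both comparisons with LPS mice also differ in the solvent, and its part was not tested. The first 2 comparisons share the control mice, and the last shares mice with each of them, so that their values for the members are set side by side and not counted together.

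In LPS lungs the interferon response genes were high as a set. Of 47 tested members 41 were called higher than in control, where 17.9% of all 18560 tested genes were, and the median log2FC was 2.89 (all genes -0.01). None was called lower by edgeR, where 21.3% of all genes were, and the count was also 0 at an unadjusted p and with DESeq2. The fitted log2FC ran from -0.14 for *Slfn5* to 5.53 for *Oasl1*, and 45 members were higher in every LPS mouse than in every control mouse, as were 34.7% of all genes. Without LPS mice 6 and 7, 42 members were called higher (16.4% of all genes) with a median of 3.14, and these included all 41. With LPS mouse 1 alone, the log2FC of the 41 ran from 1.21 to 5.92.

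After the dual treatment fewer of these genes were called above control. Here 21 members were called higher than in control, against 5.25% of all genes, and the median log2FC was 0.92 (all genes 0.00). None was called lower by edgeR (1.90% of all genes), by DESeq2 or at an unadjusted p. The log2FC ran from -0.34 for *Slfn5* to 3.99 for *Oas3*, and 38 members were higher in both dual-treated mice than in every control mouse, as were 26.1% of all genes. The median fell to 0.51 without dual-treated mouse 2, when 14 members were called (596 of all 18560 genes), and was 1.16 without mouse 5, when 26 were (1081 of all genes).

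Dual-treated lungs were lower than LPS lungs for most members. In this direct comparison 29 of 47 were called lower, against 14.0% of all genes, with a median log2FC of -1.37 (all genes 0.06). None was called higher by edgeR, where 19.8% of all genes were, and the count was 0 at an unadjusted p and with DESeq2 too. The log2FC ran from -4.89 for *Rsad2* to 0.04 for *Ddx60*, and 37 members were lower in both dual-treated mice than in every LPS mouse (32.9% of all genes). Without LPS mice 6 and 7 the median was -1.64, and the log2FC of the 29 ran from -5.36 to -1.21. The log2FC of *Zbp1*, *Eif2ak2*, *Oasl2*, *Sp100* and *Tor3a*, not called with all mice, then passed the fold criterion too. Without LPS mouse 1, 26 members were called lower, beside 2404 of all 18560 genes. With library size only in place of TMM 24 were, beside 1735 of all genes, and *Ifih1*, *Dhx58*, *Oas3*, *Herc6* and *Bst2* lost their call. Without dual-treated mouse 5 the median was -1.17. In bulk tissue, fewer cells that express a gene and less RNA per cell cannot be told apart.

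**Figure D1:**
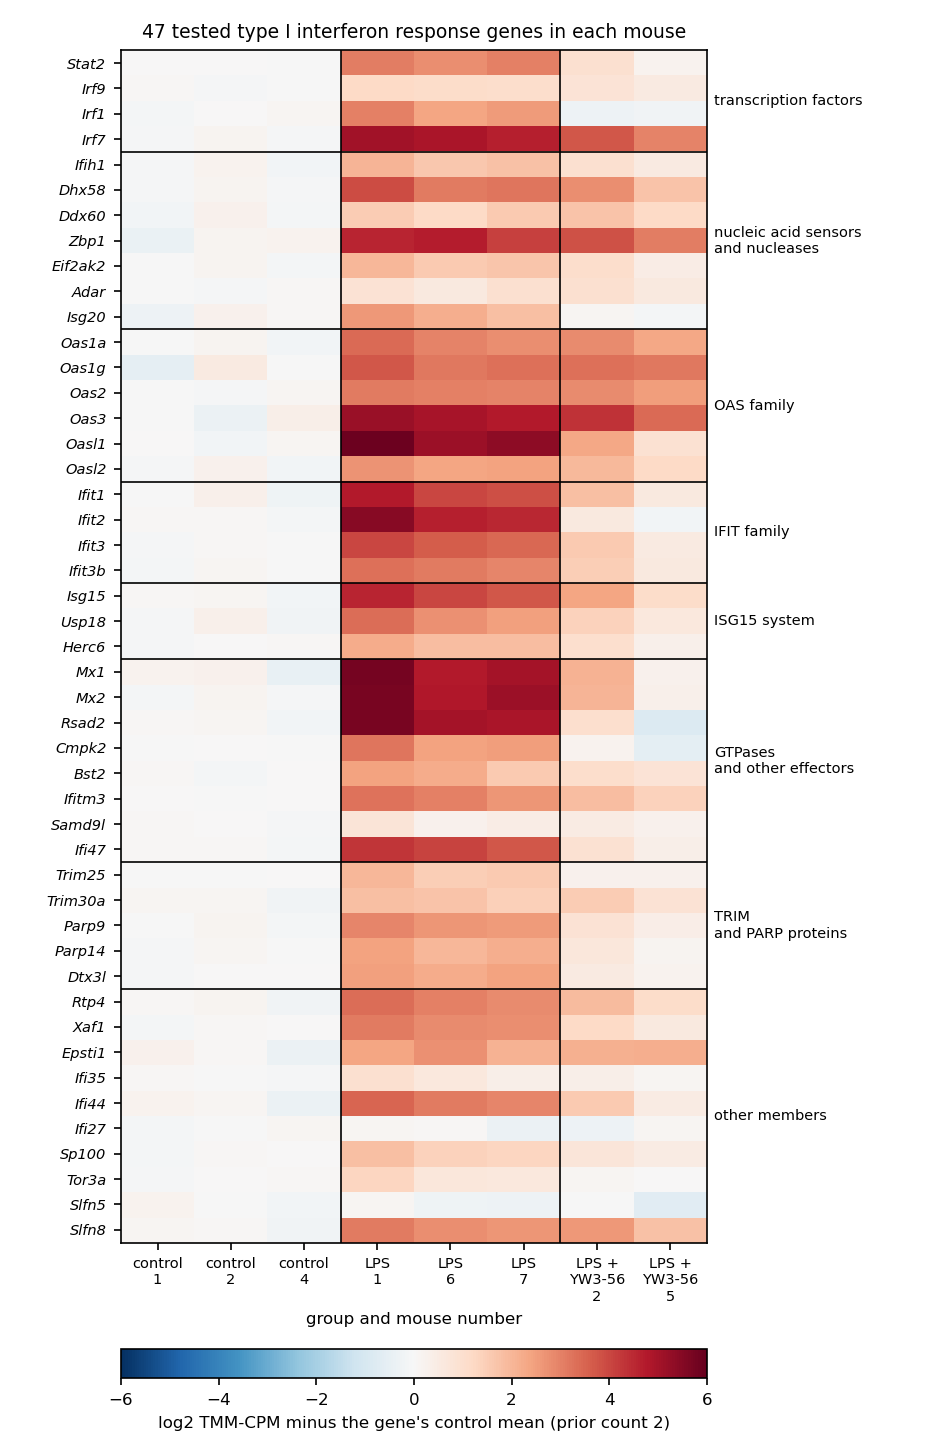
Log2 CPM (prior count 2) of the 47 tested members (vertical axis, ordered by role) in each of the 8 mice (horizontal axis), minus the control mean of the gene. The LPS mice are red for nearly every member, whereas the dual-treated mice keep a strong colour for *Irf7*, *Zbp1*, *Oas3* and *Oas1g* and are near white for *Ifit2* and *Irf1*, and *Slfn5* and *Ifi27* are pale in every group.

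A score per mouse, the mean over the 47 members of log2 CPM minus the control mean, was -0.03, 0.09 and -0.06 in control, 3.06, 2.67 and 2.59 in LPS and 1.45 and 0.81 in dual-treated mice. The 3 groups did not overlap in this score, and dual-treated mouse 5 was the nearest of the treated mice to control. The members took 0.220%, 0.231% and 0.217% of all counts in control, 1.41%, 1.16% and 1.10% in LPS and 0.523% and 0.355% in dual-treated libraries. Split by role, the IFIT family had the highest LPS scores, at 4.38, 3.86 and 3.69, and its dual-treated scores were 1.36 and 0.39. The OAS family was the role in which the dual-treated mice stayed highest, at 2.94 and 2.25, against 4.002, 3.61 and 3.61 in LPS mice. GTPases and other effectors had 3.88, 3.32 and 3.25 in LPS mice and 1.20 and 0.24 in dual-treated mice. Every role was above control in each LPS and each dual-treated mouse, and the difference between roles was not tested.

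**Figure D2:**
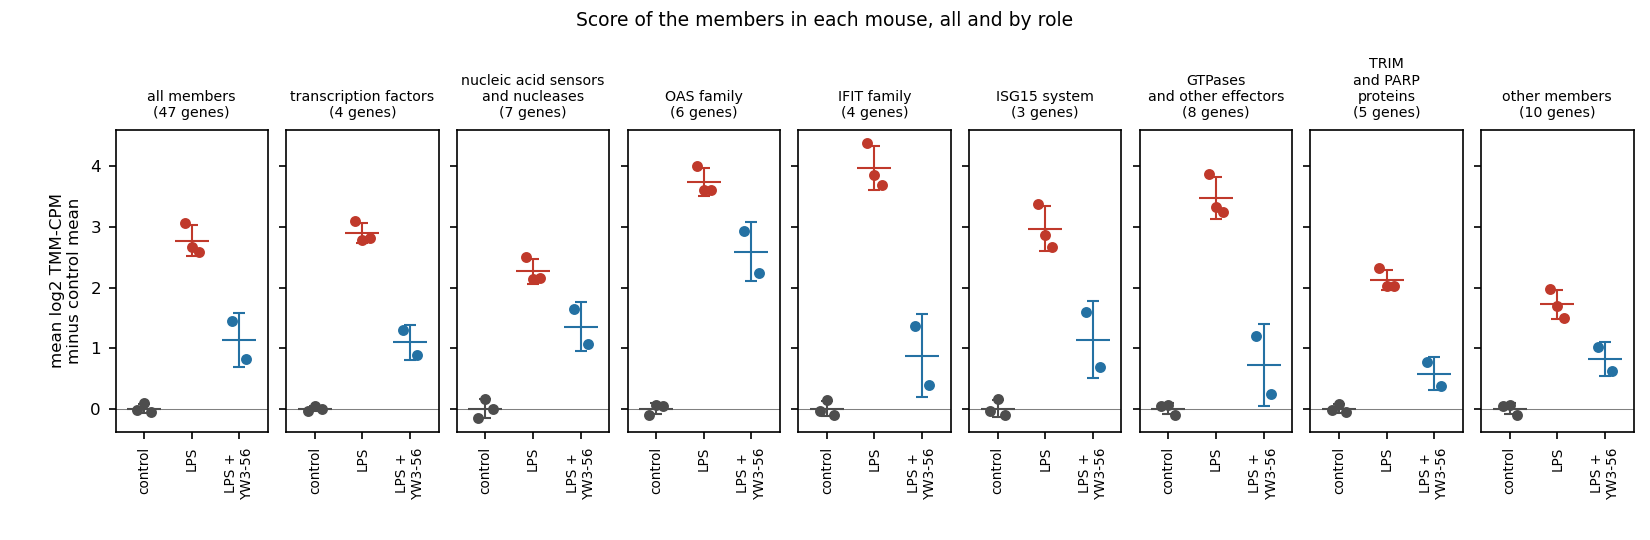
Score of each mouse (points), all members and by role, as mean log2 CPM minus the control mean (vertical axis), with the mean and SD of each group (bars, n = 3, 3 and 2 mice). In every panel the LPS mice lie above the control mice, and the dual-treated mice are highest for the OAS family (2.94 and 2.25).

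The transcription factors among the members are parts of the signalling loop itself, and all 4 were called higher in LPS lungs, 1 in dual-treated lungs, and 3 lower in dual-treated than in LPS lungs. The shares of all genes beside these counts, and beside those of every role that follows, are 17.9%, 5.25% and 14.0%. *Irf7*, which amplifies the production of interferon-alpha, stood at 23.4, 28.2 and 23.3 CPM in control, 824, 739.6 and 631 CPM in LPS and 329.5 and 193 CPM in dual-treated lungs. Every LPS mouse was far above every control mouse, and the dual-treated mice lay apart from both groups. Its log2FC was 4.87 ± 0.23 (adjusted p = 5.54e-07) in LPS and 3.39 ± 0.22 (adjusted p = 3.95e-05) in dual-treated lungs, both against control, and -1.48 ± 0.23 (adjusted p = 0.000424) in dual-treated against LPS lungs. *Stat2*, a subunit of the complex that binds the ISRE, stood at 68.7, 68.5 and 65.7 CPM in control, 575, 469.7 and 544 CPM in LPS and 132 and 79.5 CPM in dual-treated lungs. The groups did not overlap, although dual-treated mouse 5 was close to the controls. For *Stat2* the log2FC was 2.97 ± 0.18 (adjusted p = 1.58e-06) in LPS and 0.64 ± 0.19 (adjusted p = 0.0464) in dual-treated lungs, both against control, and -2.32 ± 0.21 (adjusted p = 2.19e-05) in dual-treated against LPS lungs, so that the value against control in dual-treated lungs was below the fold criterion. *Irf9*, the DNA-binding subunit of the same complex, had 56.7, 52.9 and 54.7 CPM in control, 127, 117 and 114 CPM in LPS and 97.6 and 79.7 CPM in dual-treated lungs. It moved least of the 4 in both comparisons with LPS lungs, and its groups were again separate, in the order control, dual treatment and LPS. The *Irf9* log2FC was 1.13 ± 0.10 (adjusted p = 1.02e-05) in LPS and 0.69 ± 0.11 (adjusted p = 0.00313) in dual-treated lungs, both against control, and -0.43 ± 0.11 (adjusted p = 0.00823) in dual-treated against LPS lungs, and with library size only in place of TMM it was 0.84 in LPS lungs, below the fold criterion. *Irf1*, a factor that both interferon types induce, was chosen for mention after its values were seen, at 124, 140.4 and 146 CPM in control, 1122, 715 and 802 CPM in LPS and 109.8 and 119.6 CPM in dual-treated lungs. Both dual-treated mice were below every control mouse, which no other member showed. Its log2FC was 2.68 ± 0.17 (adjusted p = 2.04e-06) in LPS and -0.26 ± 0.19 (adjusted p = 0.394) in dual-treated lungs, both against control, and -2.94 ± 0.21 (adjusted p = 7.95e-06) in dual-treated against LPS lungs, and 44.6% of its exon length is shared with other genes on either strand.

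Among 8 sensors and nucleases, 7 were tested, and 6 were called higher in LPS lungs, 3 in dual-treated lungs, and 3 lower in dual-treated than in LPS lungs. *Zbp1*, a sensor of Z-form nucleic acid that can start necroptosis, stood at 4.65, 6.805 and 7.08 CPM in control, 146, 163 and 107 CPM in LPS and 88.5 and 51.9 CPM in dual-treated lungs. It was low in control and highest in LPS mouse 6, and the groups were separate. Its log2FC was 4.49 ± 0.27 (adjusted p = 1.34e-06) in LPS and 3.50 ± 0.27 (adjusted p = 7.51e-05) in dual-treated lungs, both against control, and -0.98 ± 0.26 (adjusted p = 0.00869) in dual-treated against LPS lungs. The last value was just short of the fold criterion and passed it with DESeq2 and with RLE factors (-1.04 each), with the compared groups alone (-1.01), and without dual-treated mouse 2 (-1.45), control mouse 4 (-1.01), LPS mouse 7 (-1.14) or LPS mice 6 and 7 together (-1.05). *Dhx58* encodes LGP2, an RNA helicase that tunes the RIG-I-like receptors, and stood at 5.68, 6.66 and 5.79 CPM in control, 91.7, 53.9 and 57.05 CPM in LPS and 42.2 and 20.2 CPM in dual-treated lungs. Groups were separate, with dual-treated mouse 5 further below the LPS mice than mouse 2. For *Dhx58* the log2FC was 3.48 ± 0.31 (adjusted p = 9.55e-06) in LPS and 2.37 ± 0.32 (adjusted p = 0.00138) in dual-treated lungs, both against control, and -1.11 ± 0.31 (adjusted p = 0.0123) in dual-treated against LPS lungs, and the last of these was -1.76 without dual-treated mouse 2 and lost its call without mouse 5 (-0.70), without LPS mouse 1 (-0.83) and with library size only (-0.77). *Ddx60*, a helicase linked to the sensing of viral RNA, had 4.5996, 6.29 and 4.83 CPM in control, 15.1, 12.1 and 15.7 CPM in LPS and 17.4 and 12.03 CPM in dual-treated lungs. Dual-treated and LPS mice overlapped, and both lay above control. The *Ddx60* log2FC was 1.44 ± 0.20 (adjusted p = 0.000191) in LPS and 1.49 ± 0.22 (adjusted p = 0.0023) in dual-treated lungs, both against control, and 0.04 ± 0.22 (adjusted p = 0.87) in dual-treated against LPS lungs, the last changing sign to -0.01 with DESeq2 and to -0.28 without dual-treated mouse 2. *Adar*, which edits adenosine to inosine in double-stranded RNA, had 40.1, 39.2 and 43.1 CPM in control, 75.5, 60.3 and 80.05 CPM in LPS and 80.1 and 61.5 CPM in dual-treated lungs. It was above every control mouse in both treated groups by less than the fold criterion, and those groups overlapped. Its log2FC was 0.82 ± 0.13 (adjusted p = 0.000495) in LPS and 0.79 ± 0.15 (adjusted p = 0.00696) in dual-treated lungs, both against control, and -0.02 ± 0.15 (adjusted p = 0.901) in dual-treated against LPS lungs, the last reversing to 0.30 with library size only and to 0.13 without dual-treated mouse 5, and 16.8% of its exon length is shared with *Chrnb2* on the other strand.

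In the OAS family all 6 members were called higher in LPS and also in dual-treated lungs, and 2 were called lower in dual-treated than in LPS lungs. These oligoadenylate synthetases sense double-stranded RNA, and their product activates the nuclease RNase L. *Oas3* stood at 1.91, 1.502 and 2.44 CPM in control, 71.8, 62.02 and 54.98 CPM in LPS and 40.7 and 21.5 CPM in dual-treated lungs. Every treated mouse was far above the controls, and the dual-treated mice lay below the LPS mice. Its log2FC was 5.01 ± 0.28 (adjusted p = 1.08e-06) in LPS and 3.99 ± 0.29 (adjusted p = 5.44e-05) in dual-treated lungs, both against control, and -1.02 ± 0.26 (adjusted p = 0.00739) in dual-treated against LPS lungs, and the last was -1.58 without dual-treated mouse 2. Its call was lost without mouse 5 (-0.65), without LPS mouse 1 (-0.91), with library size only (-0.68), with upper-quartile factors (-0.93), and with no filter on low counts or at least 10 counts in every library (-0.99 each). *Oas1a*, a catalytically active family member, had 6.801, 7.697 and 6.12 CPM in control, 72.3, 54.98 and 48.6 CPM in LPS and 49.2 and 34.5 CPM in dual-treated lungs. Dual-treated mouse 2 lay within the range of the LPS mice. For *Oas1a* the log2FC was 3.09 ± 0.20 (adjusted p = 1.89e-06) in LPS and 2.61 ± 0.21 (adjusted p = 8.69e-05) in dual-treated lungs, both against control, and -0.49 ± 0.20 (adjusted p = 0.0606) in dual-treated against LPS lungs. *Oas1g*, a close paralog, had 1.08, 2.35 and 1.56 CPM in control, 22.3, 15.2 and 16.5 CPM in LPS and 16.7 and 14.9 CPM in dual-treated lungs. Again the treated groups overlapped, and the control mice were separate. The *Oas1g* log2FC was 3.43 ± 0.28 (adjusted p = 5.73e-06) in LPS and 3.24 ± 0.29 (adjusted p = 0.00016) in dual-treated lungs, both against control, and -0.19 ± 0.27 (adjusted p = 0.563) in dual-treated against LPS lungs, with the last at 0.15 when scaled by library size only. Of the 100-base stretches in *Oas1g* transcripts 31.8% also occur in *Oas1a*, so that reads may be shared between the 2 genes. *Oas2* had 9.05, 8.87 and 10.2 CPM in control, 82.4, 76.5 and 75.1 CPM in LPS and 67.5 and 52.9 CPM in dual-treated lungs. Its treated groups were close to each other but did not overlap. Its log2FC was 3.06 ± 0.12 (adjusted p = 3.2e-07) in LPS and 2.68 ± 0.13 (adjusted p = 9.39e-06) in dual-treated lungs, both against control, and -0.37 ± 0.12 (adjusted p = 0.0263) in dual-treated against LPS lungs.

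Compared with the rest of the family, *Oasl1* lay further below LPS lungs after the dual treatment. *Oasl1*, which lacks the synthetase activity and is known in mice to restrain the translation of *Irf7* RNA, stood at 5.28, 4.599 and 5.61 CPM in control, 313, 187 and 216 CPM in LPS and 26.4 and 9.88 CPM in dual-treated lungs. LPS mice were far above all others, and dual-treated mouse 5 was not far above the highest control. Its log2FC was 5.53 ± 0.38 (adjusted p = 2.42e-06) in LPS and 1.81 ± 0.37 (adjusted p = 0.011) in dual-treated lungs, both against control, and -3.72 ± 0.40 (adjusted p = 5.81e-05) in dual-treated against LPS lungs, and the value in dual-treated lungs was 0.90 without mouse 2, where the call was lost. *Oasl2*, an active synthetase with ubiquitin-like domains, had 44.7, 55.3 and 41.2 CPM in control, 306, 239.7 and 253 CPM in LPS and 181 and 105 CPM in dual-treated lungs. The 3 groups were separate, with dual-treated mouse 2 nearer to the LPS mice and mouse 5 nearer to the controls. For *Oasl2* the log2FC was 2.499 ± 0.21 (adjusted p = 7.22e-06) in LPS and 1.60 ± 0.22 (adjusted p = 0.00153) in dual-treated lungs, both against control, and -0.90 ± 0.23 (adjusted p = 0.00737) in dual-treated against LPS lungs, and the last passed the fold criterion without dual-treated mouse 2 (-1.36) and without LPS mice 6 and 7 (-1.10).

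The IFIT proteins bind viral RNA and block its translation, and all 4 genes were called higher in LPS lungs and lower in dual-treated than in LPS lungs. *Ifit1*, whose protein recognizes RNA caps that lack the methyl marks of the host, stood at 25.9, 32.3 and 22.3 CPM in control, 726, 434 and 391 CPM in LPS and 93.1 and 39.3 CPM in dual-treated lungs. Dual-treated mouse 2 was well above the controls and mouse 5 just above them. Its log2FC was 4.27 ± 0.37 (adjusted p = 8.39e-06) in LPS and 1.30 ± 0.36 (adjusted p = 0.038) in dual-treated lungs, both against control, and -2.97 ± 0.41 (adjusted p = 0.00023) in dual-treated against LPS lungs. The call in dual-treated lungs was lost without any one of the control mice (1.28, 1.45 and 1.16), without LPS mouse 6 (1.30) and without dual-treated mouse 2 (0.52). *Ifit2*, which acts with its paralogs and can promote apoptosis, had 29.3, 28.6 and 25.2 CPM in control, 1209, 701 and 629.6 CPM in LPS and 41.98 and 25.03 CPM in dual-treated lungs. The LPS mice were far above the rest, while the dual-treated mice overlapped the controls, with mouse 5 below all of them. For *Ifit2* the log2FC was 4.94 ± 0.30 (adjusted p = 1.58e-06) in LPS and 0.28 ± 0.29 (adjusted p = 0.575) in dual-treated lungs, both against control, and -4.66 ± 0.36 (adjusted p = 1.06e-05) in dual-treated against LPS lungs, and the value against control in dual-treated lungs was -0.18 without mouse 2. *Ifit3*, a stabilizing partner of IFIT1 in the family's complexes, had 93.9, 104 and 96.8 CPM in control, 1574, 1208 and 1079 CPM in LPS and 291 and 144 CPM in dual-treated lungs. Its groups did not overlap, and mouse 5 was the closer of the dual-treated mice to control. The *Ifit3* log2FC was 3.71 ± 0.26 (adjusted p = 3.05e-06) in LPS and 1.14 ± 0.26 (adjusted p = 0.0177) in dual-treated lungs, both against control, and -2.57 ± 0.29 (adjusted p = 8.37e-05) in dual-treated against LPS lungs, and the call in dual-treated lungs was lost without mouse 2 (0.52) or any one of the controls (1.11, 1.19 and 1.11). *Ifit3b*, its neighbour and paralog, had 15.3, 18.4 and 16.6 CPM in control, 167, 146 and 127 CPM in LPS and 46.5 and 25.03 CPM in dual-treated lungs. Groups were ordered as for *Ifit3*. Its log2FC was 3.12 ± 0.22 (adjusted p = 2.79e-06) in LPS and 1.09 ± 0.23 (adjusted p = 0.0119) in dual-treated lungs, both against control, and -2.03 ± 0.24 (adjusted p = 0.000101) in dual-treated against LPS lungs, with 0.55 in dual-treated lungs without mouse 2, where the call was lost. The 2 paralogs share sequence, with 27.2% of the 100-base stretches of *Ifit3b* found in *Ifit3* and 16.7% the other way.

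ISG15 is a ubiquitin-like protein that is attached to other proteins during the interferon response, and the 3 members of this system were called higher in LPS lungs and lower in dual-treated than in LPS lungs, with 2 called higher in dual-treated lungs than in control. *Isg15* itself stood at 17.9, 18.9 and 15.3 CPM in control, 409, 275 and 228 CPM in LPS and 91.03 and 37.1 CPM in dual-treated lungs. All groups were separate, and the gap between mice 2 and 5 of the dual treatment was wider than any among the controls. Its log2FC was 4.13 ± 0.35 (adjusted p = 7.55e-06) in LPS and 1.88 ± 0.35 (adjusted p = 0.00669) in dual-treated lungs, both against control, and -2.25 ± 0.37 (adjusted p = 0.000695) in dual-treated against LPS lungs, and in dual-treated lungs it was 1.07 without mouse 2. *Usp18*, a protease that removes ISG15 and also shuts down signalling at the receptor, had 21.3, 27.7 and 19.6 CPM in control, 233, 152 and 124 CPM in LPS and 58.4 and 35.6 CPM in dual-treated lungs. LPS mice were highest and both dual-treated mice were above the controls. For *Usp18* the log2FC was 2.89 ± 0.27 (adjusted p = 1.42e-05) in LPS and 1.04 ± 0.28 (adjusted p = 0.0367) in dual-treated lungs, both against control, and -1.85 ± 0.30 (adjusted p = 0.000639) in dual-treated against LPS lungs. The second value lost its call without dual-treated mouse 2 (0.61), without any one of the controls (0.99, 1.20 and 0.91) and without LPS mouse 6 (1.04). *Herc6*, the main ligase for ISG15 in mice, had 11.6, 12.7 and 12.7 CPM in control, 58.6, 45.3 and 44.4 CPM in LPS and 24.96 and 15.5 CPM in dual-treated lungs. It rose less than the others, in the same order of groups. The *Herc6* log2FC was 2.00 ± 0.19 (adjusted p = 1.32e-05) in LPS and 0.71 ± 0.20 (adjusted p = 0.0417) in dual-treated lungs, both against control, and -1.29 ± 0.21 (adjusted p = 0.000592) in dual-treated against LPS lungs, the last at -0.95 with library size only, and 12.2% of its exon length is shared with *Gm45193*. The enzymes that charge ISG15 are not members, but *Uba7* and *Ube2l6* were both called higher in LPS lungs (1.82 ± 0.13 (adjusted p = 3.65e-06) and 2.41 ± 0.25 (adjusted p = 2.65e-05)) and lower in dual-treated than in LPS lungs (-1.16 ± 0.15 (adjusted p = 0.000173) and -2.02 ± 0.29 (adjusted p = 0.000293)). *Uba7* was at 53.1, 56.6 and 60.8 CPM in control, 229, 173 and 202 CPM in LPS and 101 and 79.5 CPM in dual-treated lungs, and *Ube2l6*, with 11.4% of its exon length shared with *Smtnl1* on the other strand, at 34.6, 54.1 and 39.04 CPM in control, 306, 213 and 161 CPM in LPS and 63.1 and 48.9 CPM in dual-treated lungs. The whole conjugation system, from activating enzyme to protease, therefore had the same direction in these comparisons, though *Uba7* was at -0.83, below the fold criterion, in dual-treated against LPS lungs with library size only.

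Among the GTPases and other effectors 7 of 8 were called higher in LPS lungs, 1 in dual-treated lungs, and 7 lower in dual-treated than in LPS lungs. *Mx1* encodes a dynamin-like GTPase against influenza virus, which a deletion in the gene leaves without function in C57BL/6 mice, and its RNA stood at 4.795, 4.83 and 2.94 CPM in control, 223, 115 and 135 CPM in LPS and 17.7 and 4.83 CPM in dual-treated lungs. Dual-treated mouse 5 was within the control range, whereas mouse 2 was above it, the widest gap between these mice of any member. Its log2FC was 5.23 ± 0.48 (adjusted p = 1.24e-05) in LPS and 1.42 ± 0.50 (adjusted p = 0.0831) in dual-treated lungs, both against control, and -3.81 ± 0.52 (adjusted p = 0.000229) in dual-treated against LPS lungs, and without mouse 5 the value in dual-treated lungs was 2.05 and was called, as it was with no filter on low counts (1.42). *Mx2*, its neighbour, had 3.62, 4.46 and 3.77 CPM in control, 207, 114 and 143 CPM in LPS and 16.3 and 4.96 CPM in dual-treated lungs. The pattern was that of *Mx1*, with mouse 5 just above the highest control. For *Mx2* the log2FC was 5.29 ± 0.42 (adjusted p = 5.61e-06) in LPS and 1.43 ± 0.44 (adjusted p = 0.0547) in dual-treated lungs, both against control, and -3.86 ± 0.46 (adjusted p = 0.0001) in dual-treated against LPS lungs. The second value was called with DESeq2 (1.41), with library size only (1.47), with no filter on low counts (1.42), with at least 10 counts in every library (1.43), without LPS mouse 1 (1.43) and without dual-treated mouse 5 (2.02). *Rsad2* encodes viperin, whose nucleotide product stops viral RNA synthesis, and stood at 20.3, 21.3 and 17.5 CPM in control, 1035, 624 and 588 CPM in LPS and 39.5 and 11.02 CPM in dual-treated lungs. Among the dual-treated mice, mouse 2 was above and mouse 5 below every control. The *Rsad2* log2FC was 5.25 ± 0.46 (adjusted p = 8.78e-06) in LPS and 0.36 ± 0.44 (adjusted p = 0.631) in dual-treated lungs, both against control, and -4.89 ± 0.53 (adjusted p = 6.41e-05) in dual-treated against LPS lungs, and the value in dual-treated lungs was 0.98 without mouse 5 and -0.87 without mouse 2, so that its direction rests on 1 mouse. *Ifitm3*, which blocks the fusion of viruses with endosomes, was the member with the highest level per kb in every group, at 270.5, 264 and 276 CPM in control, 2625, 2232 and 1693 CPM in LPS and 987 and 703 CPM in dual-treated lungs. Groups were separate by a wide margin. Its log2FC was 3.01 ± 0.19 (adjusted p = 1.95e-06) in LPS and 1.64 ± 0.20 (adjusted p = 0.000805) in dual-treated lungs, both against control, and -1.37 ± 0.21 (adjusted p = 0.000465) in dual-treated against LPS lungs. *Samd9l*, an antiviral regulator of translation, had 61.2, 60.1 and 55.2 CPM in control, 101, 71.1 and 78.9 CPM in LPS and 81.5 and 69.5 CPM in dual-treated lungs. It was above control in every treated mouse by less than the fold criterion, and the treated groups overlapped. The log2FC for *Samd9l* was 0.51 ± 0.13 (adjusted p = 0.00746) in LPS and 0.36 ± 0.15 (adjusted p = 0.129) in dual-treated lungs, both against control, and -0.15 ± 0.15 (adjusted p = 0.418) in dual-treated against LPS lungs, the last at 0.19 with library size only and 0.01 without LPS mouse 1.

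All 5 TRIM and PARP proteins were called higher in LPS lungs, 1 was in dual-treated lungs, and 4 were called lower in dual-treated than in LPS lungs. *Parp9* and *Dtx3l* form a complex of an ADP-ribosyltransferase-like protein and a ubiquitin ligase. *Parp9* stood at 41.9, 48.2 and 40.05 CPM in control, 334, 273 and 252 CPM in LPS and 79.5 and 57.1 CPM in dual-treated lungs. LPS mice were separate from all others, and the dual-treated mice lay a little above the controls. Its log2FC was 2.72 ± 0.16 (adjusted p = 1.37e-06) in LPS and 0.65 ± 0.17 (adjusted p = 0.0294) in dual-treated lungs, both against control, and -2.07 ± 0.18 (adjusted p = 2.1e-05) in dual-treated against LPS lungs. *Dtx3l* had 28.5, 30.7 and 30.8 CPM in control, 164, 142 and 159.5 CPM in LPS and 44.2 and 34.6 CPM in dual-treated lungs. Its groups followed those of *Parp9*, from which it is divergently placed on the chromosome with overlapping exons (8% of the length of *Dtx3l*). For *Dtx3l* the log2FC was 2.37 ± 0.12 (adjusted p = 6.16e-07) in LPS and 0.39 ± 0.12 (adjusted p = 0.0602) in dual-treated lungs, both against control, and -1.98 ± 0.13 (adjusted p = 6.51e-06) in dual-treated against LPS lungs. *Trim30a*, a ubiquitin ligase that dampens inflammatory signalling in mice, had 29.2, 29.3 and 22.99 CPM in control, 95.2, 89.5 and 73.6 CPM in LPS and 78.6 and 49.5 CPM in dual-treated lungs. Here dual-treated mouse 2 reached the LPS range and mouse 5 did not. The *Trim30a* log2FC was 1.67 ± 0.18 (adjusted p = 3.71e-05) in LPS and 1.24 ± 0.20 (adjusted p = 0.00329) in dual-treated lungs, both against control, and -0.43 ± 0.20 (adjusted p = 0.0914) in dual-treated against LPS lungs, and the value in dual-treated lungs was 0.83 without mouse 2, where the call was lost.

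The 10 remaining members have varied or less defined roles, and 6 were called higher in LPS lungs, 4 in dual-treated lungs, and 3 lower in dual-treated than in LPS lungs. *Ifi44* stood at 11.2, 10.5 and 7.63 CPM in control, 109, 85.3 and 74.1 CPM in LPS and 28.9 and 13.6 CPM in dual-treated lungs. Mouse 5 was near the highest control, and mouse 2 was between the groups. Its log2FC was 3.19 ± 0.28 (adjusted p = 1e-05) in LPS and 1.12 ± 0.30 (adjusted p = 0.0329) in dual-treated lungs, both against control, and -2.07 ± 0.31 (adjusted p = 0.000391) in dual-treated against LPS lungs, and the call in dual-treated lungs was lost without mouse 2 (0.45), without any one of the controls (1.23, 1.17 and 0.94) and without LPS mouse 6 (1.12). *Rtp4*, a chaperone that helps receptors reach the cell surface, had 19.96, 21.3 and 16.7 CPM in control, 196, 158 and 136 CPM in LPS and 72.2 and 41.97 CPM in dual-treated lungs. The 3 groups were separate. For *Rtp4* the log2FC was 3.08 ± 0.22 (adjusted p = 3.14e-06) in LPS and 1.56 ± 0.23 (adjusted p = 0.00212) in dual-treated lungs, both against control, and -1.51 ± 0.24 (adjusted p = 0.000512) in dual-treated against LPS lungs, and 26.6% of its exon length is shared with *Gm45338*. *Epsti1* had 4.16, 3.66 and 2.71 CPM in control, 17.98, 23.6 and 14.9 CPM in LPS and 15.3 and 16.2 CPM in dual-treated lungs. The treated groups overlapped, and both were above control. The *Epsti1* log2FC was 2.42 ± 0.22 (adjusted p = 1.15e-05) in LPS and 2.17 ± 0.23 (adjusted p = 0.000436) in dual-treated lungs, both against control, and -0.26 ± 0.23 (adjusted p = 0.354) in dual-treated against LPS lungs, the last at 0.07 with library size only. *Slfn8*, of the Schlafen family that restrains growth and translation, had 4.35, 4.22 and 3.45 CPM in control, 35.7, 28.5 and 25.3 CPM in LPS and 24.6 and 13.8 CPM in dual-treated lungs. Dual-treated mouse 2 was just under the lowest LPS mouse. Its log2FC was 2.89 ± 0.24 (adjusted p = 6.97e-06) in LPS and 2.26 ± 0.25 (adjusted p = 0.000523) in dual-treated lungs, both against control, and -0.63 ± 0.25 (adjusted p = 0.0491) in dual-treated against LPS lungs, and the last was -1.14 without mouse 2, where it was called.

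The other 4 members that were not called in LPS lungs were *Tor3a*, *Ifi35*, *Ifi27* and *Slfn5*. *Tor3a*, an ATPase of the endoplasmic reticulum, had 83.8, 89.8 and 94.995 CPM in control, 215, 142 and 139 CPM in LPS and 95.5 and 89.7 CPM in dual-treated lungs. It was higher in every LPS mouse than in any other mouse, most of all in mouse 1. Its log2FC was 0.89 ± 0.16 (adjusted p = 0.000956) in LPS and 0.05 ± 0.18 (adjusted p = 0.89) in dual-treated lungs, both against control, and -0.84 ± 0.18 (adjusted p = 0.0036) in dual-treated against LPS lungs, and without LPS mice 6 and 7 it was 1.27 in LPS lungs and -1.22 in dual-treated against LPS lungs, both of which were called, and 17.3% of its exon length is shared with *Abl2* on the other strand. *Ifi35* had 57.5, 54.8 and 52.3 CPM in control, 108, 84.5 and 69.4 CPM in LPS and 69.5 and 58.9 CPM in dual-treated lungs. LPS mice were above control, and dual-treated mouse 2 was level with LPS mouse 7. For *Ifi35* the log2FC was 0.67 ± 0.15 (adjusted p = 0.0033) in LPS and 0.23 ± 0.17 (adjusted p = 0.407) in dual-treated lungs, both against control, and -0.45 ± 0.17 (adjusted p = 0.046) in dual-treated against LPS lungs, and 24.5% of its exon length is shared on the other strand. *Ifi27*, a small mitochondrial membrane protein, had 79.3, 85.5 and 94.7 CPM in control, 94.7, 91.3 and 67.4 CPM in LPS and 70.2 and 93.1 CPM in dual-treated lungs. All 3 groups overlapped. The *Ifi27* log2FC was -0.03 ± 0.15 (adjusted p = 0.854) in LPS and -0.08 ± 0.17 (adjusted p = 0.79) in dual-treated lungs, both against control, and -0.05 ± 0.17 (adjusted p = 0.816) in dual-treated against LPS lungs, and its sign turned with the scaling, to 0.0024 with DESeq2 in LPS lungs and to 0.28 with library size only in dual-treated against LPS lungs. *Slfn5*, a Schlafen protein, had 173, 148 and 136 CPM in control, 163, 126 and 124 CPM in LPS and 148 and 92.9 CPM in dual-treated lungs. Here too the groups overlapped, with the lowest level in dual-treated mouse 5. Its log2FC was -0.14 ± 0.18 (adjusted p = 0.501) in LPS and -0.34 ± 0.21 (adjusted p = 0.308) in dual-treated lungs, both against control, and -0.19 ± 0.20 (adjusted p = 0.441) in dual-treated against LPS lungs, turning to 0.15 in the last comparison with library size only and to 0.10 in LPS lungs without LPS mice 6 and 7, and 19.8% of its exon length is shared on the other strand.

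**Figure D3:**
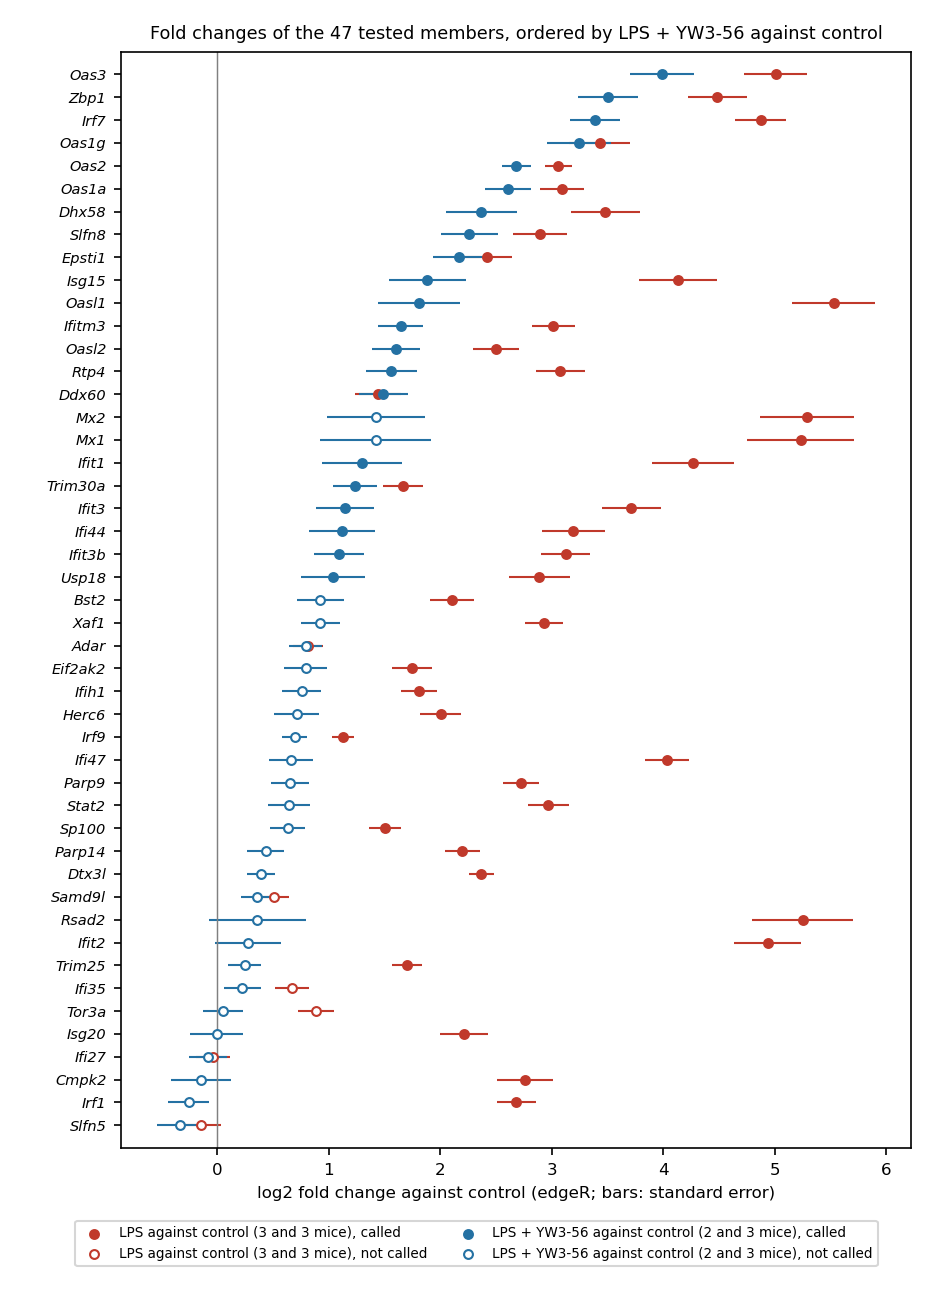
Log2 fold change (horizontal axis, bars are SE) of the 47 tested members (vertical axis) in LPS lungs (red, 3 against 3 mice) and in dual-treated lungs (blue, 2 against 3 mice), each against control and filled where called. *Oas3*, *Zbp1*, *Irf7* and *Oas1g* are at the top for the dual treatment (3.99, 3.50, 3.39 and 3.24), while *Ifit2* and *Rsad2* combine 4.94 and 5.25 in LPS lungs with 0.28 and 0.36 in dual-treated lungs.

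Levels of different genes can be compared only per length, so CPM was divided by the kilobases of exon in the annotation (mean ± SD over mice). In control lungs *Ifitm3* had the highest level per kb, at 211 ± 4.88 CPM per kb, followed by *Bst2*, which tethers virus particles to the cell surface, at 69.9 ± 4.54 and *Ifit3* at 34.1 ± 1.81 CPM per kb. In LPS lungs the order at the top was *Ifitm3* at 1704 ± 365, *Ifit3* at 447 ± 89.2 and *Isg15* at 389 ± 120.1 CPM per kb. In dual-treated lungs it was *Ifitm3* at 659.6 ± 157, *Bst2* at 133 ± 15.6 and *Isg15* at 81.9 ± 48.8 CPM per kb. *Ifitm3* was thus first in every group, and the places below it changed hands between *Bst2*, *Ifit3* and *Isg15*, of which *Bst2* was chosen for mention after its values were seen. At the other end, *Oas3* was lowest of the tested members in control lungs at 0.276 ± 0.0663 CPM per kb, and *Ddx60* was lowest in LPS lungs at 1.64 ± 0.222 and in dual-treated lungs at 1.69 ± 0.439 CPM per kb.

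Several members are neighbours in the genome (GRCm39). The IFIT genes lie in a row on chromosome 19, with *Ifit2* at chr19:34527932-34554524, *Ifit3* at chr19:34560899-34566443, *Ifit3b* at chr19:34585328-34590801 and *Ifit1* at chr19:34618271-34632174. Within this row the log2FC in dual-treated lungs was 0.28 for *Ifit2*, 1.14 for *Ifit3*, 1.09 for *Ifit3b* and 1.30 for *Ifit1*. On chromosome 5 *Oas2* (chr5:120868398-120887933) and *Oas3* (chr5:120891163-120915729) lie next to *Oas1g* (chr5:121014205-121025676) and *Oas1a* (chr5:121031070-121046449), with values of 2.68, 3.99, 3.24 and 2.61. *Oasl2* (chr5:115034997-115050295) and *Oasl1* (chr5:115061294-115075974) form a pair on the same chromosome, with 1.60 and 1.81. So the OAS neighbours were all called higher in dual-treated lungs, and the IFIT neighbours were split, with *Ifit2* not called. *Rsad2* (chr12:26492745-26506451) and *Cmpk2* (chr12:26519203-26529836), a nucleotide kinase of mitochondria chosen for mention because of its place, stand head to head on chromosome 12. *Cmpk2* had 30.8, 31.5 and 30.6 CPM in control, 287, 165 and 179 CPM in LPS and 35.7 and 20.4 CPM in dual-treated lungs. As for *Rsad2*, the dual-treated mice lay on either side of the controls, with log2FC values of 0.36 for *Rsad2* and -0.14 for *Cmpk2* against control, the latter 0.18 without mouse 5.

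Some mice of the same group differed in the same direction over most members. Dual-treated mouse 2 was above mouse 5 in 43 of 47 members (91.5%), with a median log2 difference of 0.63, where over all 18560 genes mouse 2 was above mouse 5 in 48%, with a median of -0.01. The largest differences were 1.85 for *Mx1*, 1.83 for *Rsad2* and 1.70 for *Mx2*. Mouse 2 was above every control mouse in 43 members and mouse 5 in 38, where of all genes 7177 and 6631 were. Mouse 2 was below every LPS mouse in 37 members and mouse 5 in 44, where of all genes 6952 and 7208 were. Among LPS mice, mouse 1 was above mouse 6 in 45 of 47 members (53.9% of all genes) and above mouse 7 in 45 (53% of all genes), with median log2 differences of 0.37 and 0.48. LPS mouse 1, whose squamous sum was below and whose muscle sum was within the range of the controls, was therefore the highest in most members. Between LPS mice 6 and 7 the median log2 difference was 0.06, and among control mice the medians ran from -0.10 to 0.17. The difference between the dual-treated mice was thus larger than any within the other groups, and its cause was not tested.

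Genes upstream of the response were taken from lists by role, and *Ifnar1*, *Ifnar2*, *Jak1*, *Tyk2* and *Tlr4* were chosen from them for mention after their values were seen. None of 20 ligand genes of type I and III interferon passed the filter on low counts, and together they had 2, 3 and 3 counts in control, 13, 10 and 30 with LPS and 3 and 0 with both agents, where 3 counts stand for 0.132 to 0.178 CPM. At 24 h the ligands were thus close to the limit of detection while their target genes were abundant. Of the 30 counts in LPS mouse 7, 10 were of *Ifnl2* and 8 of *Ifnl3*, type III interferons with 0 counts in every other mouse, named here after their values were seen. *Ifng*, the type II interferon, had 2, 1 and 3 counts in control, 93, 41 and 8 counts in LPS and 0 and 5 counts in dual-treated lungs, and the test called it higher with LPS than in control (adjusted p = 0.00283) and lower with both agents than with LPS (adjusted p = 0.00935). It was high in LPS mice 1 and 6 and near the floor elsewhere, so that no fold is given, and 25.9% of its exon length is shared with *Gm49751*. None of 6 interferon receptor genes was called in any of the 3 comparisons by edgeR, and none was at an unadjusted p with the fold criterion. Of all genes 17.9% were called higher and 21.3% lower in LPS lungs, and 5.25% and 1.90% in dual-treated lungs. In dual-treated against LPS lungs 19.8% and 14.0% were. *Ifnar1* had 76.5, 89.5 and 74.4 CPM in control, 78.3, 85.1 and 84.8 CPM in LPS and 92.3 and 90.7 CPM in dual-treated lungs. Its groups were within a narrow range, with a log2FC of 0.05 ± 0.10 (adjusted p = 0.69) in LPS lungs that turned to -0.24 with library size only. *Ifnar2* had 74.4, 66.2 and 68.2 CPM in control, 133, 131 and 99.1 CPM in LPS and 76.5 and 69.6 CPM in dual-treated lungs. It was higher in every LPS mouse than in any other mouse, by less than the fold criterion (0.80 ± 0.12 (adjusted p = 0.000331) against control and -0.73 ± 0.14 (adjusted p = 0.00168) in dual-treated against LPS lungs), and 20% of its exon length is shared with *Gm21970*.

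Of 4 kinases and STATs, *Stat3* and *Jak2* were called higher in LPS lungs (17.9% of all genes) and lower in dual-treated than in LPS lungs (14.0%). *Stat3*, which carries signals of interleukins more than of interferon, had 259.97, 229 and 241 CPM in control, 1128, 919 and 948 CPM in LPS and 296 and 249.99 CPM in dual-treated lungs, with a log2FC of 2.04 ± 0.13 (adjusted p = 1.71e-06) in LPS against control lungs and -1.87 ± 0.15 (adjusted p = 1.19e-05) in dual-treated against LPS lungs. *Jak2* had 52.9, 60.8 and 59.1 CPM in control, 182, 169.6 and 161 CPM in LPS and 74.1 and 54.7 CPM in dual-treated lungs, with 1.57 ± 0.13 (adjusted p = 5.54e-06) and -1.41 ± 0.14 (adjusted p = 4.49e-05). Both were high in LPS mice only. The kinases of the type I receptor were not called, with 0.75 ± 0.11 (adjusted p = 0.000218) for *Jak1* and -0.81 ± 0.11 (adjusted p = 0.000188) for *Tyk2* in LPS lungs, although *Tyk2* passed the fold criterion with library size only (-1.09). *Jak1*, with 18% of its exon length shared with *Raver2* on the other strand, was at 179, 179.7 and 186 CPM in control, 349.6, 285 and 281 CPM in LPS and 186 and 178 CPM in dual-treated lungs, and *Tyk2* at 58.03, 63.6 and 62.3 CPM in control, 36.7, 29.5 and 38.96 CPM in LPS and 61.3 and 66.9 CPM in dual-treated lungs. The 2 kinases stood on opposite sides of control in every LPS mouse.

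In the list of 16 genes for sensing and induction, 8 were called higher and 3 lower in LPS lungs, and with the dual treatment 3 were called higher and 4 lower than with LPS. Of all genes 17.9% and 21.3% were called higher and lower in LPS lungs and 19.8% and 14.0% with the dual treatment against LPS, so that 3 of 16 is close to what all genes show, and the genes below are described singly. *Irf3*, the factor that induces the gene for interferon-beta, had 98.4, 107 and 107 CPM in control, 29.5, 37.7 and 34.3 CPM in LPS and 98.7 and 99.6 CPM in dual-treated lungs. It was lower in every LPS mouse, and the dual-treated mice were level with the controls. Its log2FC was -1.62 ± 0.10 (adjusted p = 1.89e-06) in LPS against control lungs and 1.55 ± 0.11 (adjusted p = 8.27e-06) in dual-treated against LPS lungs. *Mavs*, the adaptor of the RNA sensors, had 39.6, 47.4 and 44.6 CPM in control, 5.93, 6.699 and 8.596 CPM in LPS and 31.5 and 34.99 CPM in dual-treated lungs, and *Ticam2*, which encodes TRAM, had 1.81, 1.64 and 1.89 CPM in control, 0.0593, 0.173 and 0.502 CPM in LPS and 2.63 and 6.45 CPM in dual-treated lungs. Both were lowest in the LPS mice, and *Mavs* had -2.63 ± 0.15 (adjusted p = 1.18e-06) against control and 2.23 ± 0.16 (adjusted p = 8.17e-06) in dual-treated against LPS lungs. *Ticam2* was called lower in LPS lungs than in control and higher with the dual treatment than with LPS, but it had 1, 3 and 9 counts in the LPS mice, so that no fold is given, and 65.3% of the exon length of *Ticam2* is shared with *Tmed7*. The kinases that activate IRF3 went the other way, *Tbk1* with 52.4, 48.9 and 48.1 CPM in control, 212, 183 and 209.9 CPM in LPS and 67.9 and 52.6 CPM in dual-treated lungs and *Ikbke* with 13.1, 10.7 and 16.5 CPM in control, 116, 164 and 140.2 CPM in LPS and 106 and 96.6 CPM in dual-treated lungs. In LPS against control lungs they had 2.02 ± 0.12 (adjusted p = 1.33e-06) and 3.38 ± 0.18 (adjusted p = 8.84e-07), and in dual-treated against LPS lungs -1.74 ± 0.14 (adjusted p = 1.14e-05) and -0.47 ± 0.18 (adjusted p = 0.0508), so that *Ikbke* stayed high in dual-treated mice. *Irf8*, a factor of myeloid cells, had 37.1, 35.3 and 41.01 CPM in control, 198, 165 and 149 CPM in LPS and 51.4 and 47.2 CPM in dual-treated lungs, and *Tlr3*, a sensor of double-stranded RNA, had 12.7, 12.7 and 15.9 CPM in control, 47.8, 33.6 and 36.95 CPM in LPS and 15.9 and 15.2 CPM in dual-treated lungs. Both were highest in LPS mice, with -1.79 ± 0.14 (adjusted p = 1.21e-05) and -1.34 ± 0.18 (adjusted p = 0.000193) in dual-treated against LPS lungs. *Tlr4*, the LPS receptor, had 17.1, 14.3 and 15.5 CPM in control, 10.5, 13.2 and 11.7 CPM in LPS and 22.7 and 17.1 CPM in dual-treated lungs, and was not called in any comparison except in dual-treated against LPS lungs with library size only (1.08).

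Among 8 negative regulators 4 were called higher and 1 lower in LPS lungs, and with the dual treatment 1 was called higher and 4 lower than with LPS, beside the same shares of all genes. *Socs1*, which blocks JAK kinases, had 4.75, 5.54 and 5.52 CPM in control, 150.2, 81.5 and 94.6 CPM in LPS and 5.99 and 4.92 CPM in dual-treated lungs. The dual-treated mice were within or next to the control range, and the LPS mice far above. Its log2FC was 4.37 ± 0.24 (adjusted p = 9.57e-07) in LPS against control lungs and -4.32 ± 0.28 (adjusted p = 6.13e-06) in dual-treated against LPS lungs. *Socs3* had 76.3, 102 and 105 CPM in control, 980.4, 729 and 766 CPM in LPS and 187 and 170.3 CPM in dual-treated lungs, and *Nlrc5*, which also activates MHC class I genes, had 19.8, 17.9 and 22.02 CPM in control, 255, 179 and 179 CPM in LPS and 54.5 and 42.98 CPM in dual-treated lungs. These stayed somewhat above control in the dual-treated mice, with -2.21 ± 0.19 (adjusted p = 1.82e-05) and -2.07 ± 0.19 (adjusted p = 2.69e-05) against LPS lungs. *Irf2*, a repressor at ISRE sites, had 65.03, 59.7 and 59.5 CPM in control, 22.1, 22.3 and 14.5 CPM in LPS and 61.8 and 59.2 CPM in dual-treated lungs. It was lower in every LPS mouse than in all others, with -1.65 ± 0.15 (adjusted p = 1.42e-05) against control and 1.63 ± 0.17 (adjusted p = 4.7e-05) in dual-treated against LPS lungs.

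Interferon-stimulated genes outside the 48 were compared as a further list. Of 48 tested genes of 49, 41 were called higher (17.9% of all genes) and 2 lower (21.3%) in LPS lungs. In dual-treated lungs 19 were called higher than in control (5.25% of all genes). Against LPS, 22 were called lower (14.0% of all genes) and 3 higher (19.8%) with the dual treatment. The median log2FC values in these comparisons were 1.99, 0.84 and -0.94. *Slfn4*, a Schlafen gene of myeloid cells, had 5.28, 2.91 and 2.805 CPM in control, 729.6, 822 and 714 CPM in LPS and 257 and 163 CPM in dual-treated lungs, the largest rise on this list in LPS lungs (7.69 ± 0.30 (adjusted p = 3.2e-07)). It stayed far above control in both dual-treated mice. *Cd274*, which encodes the checkpoint ligand PD-L1, had 17.2, 16.2 and 20.9 CPM in control, 687, 601 and 501 CPM in LPS and 38.3 and 32.3 CPM in dual-treated lungs, and its log2FC was 5.04 ± 0.17 (adjusted p = 1.63e-07) in LPS against control lungs and -4.08 ± 0.20 (adjusted p = 1.85e-06) in dual-treated against LPS lungs, and 19.6% of its exon length is shared on the other strand. The guanylate-binding protein genes *Gbp2* and *Gbp3* had 40.2, 49.8 and 54.5 CPM in control, 1249, 1219 and 859 CPM in LPS and 122 and 76.4 CPM in dual-treated lungs, and 20.4, 24.9 and 25.6 CPM in control, 763, 636 and 570.4 CPM in LPS and 86.9 and 46.5 CPM in dual-treated lungs. Together with *Irgm1*, a GTPase of a related family with 34.1, 42.6 and 40.5 CPM in control, 1106, 807 and 755 CPM in LPS and 76.8 and 49.9 CPM in dual-treated lungs, they were high in LPS mice and low but above control in the dual-treated mice. The 3 genes that dual-treated lungs had at a higher level than LPS lungs, by the same call, were *Trim34a*, *Parp11* and *Ifi27l2a*. *Trim34a*, with 23.1% of its exon length shared with *Gm47248* on the other strand, had 16.2, 17.5 and 16.001 CPM in control, 5.58, 6.699 and 6.64 CPM in LPS and 20.1 and 17.5 CPM in dual-treated lungs, and *Parp11* had 15.4, 15.96 and 17.1 CPM in control, 6.94, 7.103 and 8.76 CPM in LPS and 20.4 and 17.3 CPM in dual-treated lungs, both lowest in the LPS mice. *Ifi27l2a*, which overlaps *Ifi27* on the other strand, had 30.7, 37.1 and 29.7 CPM in control, 90.7, 120.2 and 62.1 CPM in LPS and 155 and 218 CPM in dual-treated lungs, and was the only one of these 3 above control in every treated mouse. Against LPS its log2FC was 1.03 ± 0.24 (adjusted p = 0.00527), and the call was lost with DESeq2 and with RLE factors (0.98 each), without LPS mouse 7 (0.82) and without dual-treated mouse 5 (0.74). Of 10 genes that answer mostly to interferon-gamma, 7 were called higher in LPS lungs (17.9% of all genes) and 2 in dual-treated lungs (5.25%). In dual-treated against LPS lungs 7 were called lower (14.0% of all genes), and the medians in these comparisons were 3.81, 0.69 and -2.66. *Cxcl9*, a chemokine for T cells, had 0.685, 0.657 and 1.29 CPM in control, 962, 764 and 615 CPM in LPS and 27.2 and 10.4 CPM in dual-treated lungs, and *Ido1*, an enzyme that degrades tryptophan, had 0.538, 0.986 and 0.4598 CPM in control, 59.3, 28.8 and 25.7 CPM in LPS and 0.454 and 1.32 CPM in dual-treated lungs. For *Ido1* the dual-treated mice were near the control range, whereas *Cxcl9* stayed above it. *Gbp10* had 0.147, 0.422 and 0.2299 CPM in control, 19.04, 20.3 and 21.2 CPM in LPS and 0.953 and 0.483 CPM in dual-treated lungs, with 44% of its exon length shared with *Gm43302*.

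Markers of cell types that respond to interferon also differed between the groups, and their part in the results above was not tested. Of all genes 17.9% were called higher and 21.3% lower in LPS lungs, 5.25% and 1.90% in dual-treated lungs, and 19.8% and 14.0% in dual-treated against LPS lungs, so that 1 or 2 called markers in a short list say little. The 11 neutrophil markers, with *S100a9* the most abundant, summed to 349, 276 and 198 CPM in control, 2807, 3688 and 2531 CPM in LPS and 2099 and 2596 CPM in dual-treated lungs. The sum was high in both treated groups, with 10 of the 11 called higher in LPS lungs and 8 in dual-treated lungs, but between these groups the markers went both ways, with 4 called higher and 3 lower in dual-treated than in LPS lungs. The 11 markers of monocytes and macrophages, with *Csf1r* the most abundant, summed to 268, 231 and 286 CPM in control, 298, 298 and 221 CPM in LPS and 795 and 895 CPM in dual-treated lungs. In LPS lungs 2 of them were called higher and 4 lower than in control, and in dual-treated lungs 8 were called higher and none lower, as were 9 in dual-treated against LPS lungs. This sum was highest in the dual-treated mice, in which the members were lower than in LPS mice. The 7 markers of alveolar macrophages (most abundant *Chil3*) came to 909, 671 and 868 CPM in control, 952, 1036 and 509 CPM in LPS and 1024 and 1707 CPM in dual-treated lungs, and the 7 of plasmacytoid dendritic cells, known as a source of interferon-alpha, to 196, 188 and 187 CPM in control, 177, 163 and 145 CPM in LPS and 174 and 137 CPM in dual-treated lungs, most of it *Tcf4*, which other cells express too. Of the alveolar macrophage markers 2 were called lower in LPS lungs and 1 higher in dual-treated lungs, both against control, and 3 were called higher with the dual treatment than with LPS. *Siglech*, a more specific marker of plasmacytoid dendritic cells chosen for mention after its values were seen, had 9, 10 and 14 counts in control, 9, 2 and 5 counts in LPS and 0 and 1 counts in dual-treated lungs, and was called lower in dual-treated lungs than in control (adjusted p = 0.0247) and than in LPS lungs (adjusted p = 0.0227), at counts too low for a fold. T and NK cell markers (9 genes, most abundant *Gzma*) came to 23.5, 18.2 and 20.6 CPM in control, 52.2, 45.6 and 21.8 CPM in LPS and 37.8 and 75.03 CPM in dual-treated lungs. This sum follows *Gzma*, the only 1 called higher in either treated group against control, while 2 were called lower in LPS lungs and 5 of the 9 had a log2FC below 0 in dual-treated lungs. The 6 B cell markers came to 99.3, 103 and 98.996 CPM in control, 108, 135 and 98.2 CPM in LPS and 1371 and 97.6 CPM in dual-treated lungs, and the high value in dual-treated mouse 2 was mainly *Ighm*, the only 1 called higher in dual-treated lungs than in control, while 2 of the 6 were called lower in LPS lungs and 3 higher with the dual treatment than with LPS. Dual-treated mouse 2 was also the higher of the 2 in the interferon response genes. The 6 endothelial markers (most abundant *Cdh5*) came to 3363, 3518 and 3721 CPM in control, 2082, 1695 and 1676 CPM in LPS and 3266 and 3243 CPM in dual-treated lungs, and the 5 of red cells (most abundant *Hbb-bs*) to 1734, 3908 and 2785 CPM in control, 3284, 1884 and 1468 CPM in LPS and 426 and 381 CPM in dual-treated lungs. The endothelial sum was lowest in LPS mice, where 4 of the 6 were called lower and *Cdh5* and *Cldn5* were not, and 4 were called higher with the dual treatment than with LPS, and the red cell sum was lowest in dual-treated mice.

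Most members were called higher in LPS lungs, and the promoters of the members were searched for the motif that the interferon complex binds. The RefSeq table of promoters (build GRCm38.p6, 250 bases before to 50 after each start) held 37 of the 48 members and 27025 genes in all. The ISRE core GAAANNGAAA, on either strand, was found in 17 of 37 members (45.9%, 95% Wilson interval from 31 to 61.6%) and in 1079 of all genes (3.99%). With a C after the second GAAA it was found in 14 members (37.8%) and in 0.944% of all genes. The GAS motif TTCNNNGAA, to which STAT dimers bind, was found in 9 members (24.3%) and in 9.55% of all genes. The share in the members thus stood further above that in all genes for the ISRE than for GAS, which describes letters and not binding. The 60 bases around the ISRE are shown for 8 members, to compare genes that overlapped control in dual-treated lungs (*Rsad2*), between the groups (*Stat2*, *Ifit1*, *Ifit3*, *Isg15* and *Oas3*), high in both treated groups (*Oas1a*) and not called anywhere (*Slfn5*). Each is written 5′ to 3′ along the strand of its gene, with the ISRE core in capitals (GAAANNGAAA, or its reverse complement), and the coordinates come from an exact match of the sequence to GRCm39.
*Stat2*: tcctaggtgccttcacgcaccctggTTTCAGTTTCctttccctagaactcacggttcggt
*Ifit1*: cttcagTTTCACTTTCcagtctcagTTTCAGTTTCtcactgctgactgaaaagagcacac
*Ifit3*: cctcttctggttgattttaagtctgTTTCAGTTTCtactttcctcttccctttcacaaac
*Isg15*: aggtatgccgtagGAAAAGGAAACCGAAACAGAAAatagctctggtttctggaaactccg
*Rsad2*: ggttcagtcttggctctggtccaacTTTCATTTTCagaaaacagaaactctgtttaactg
*Oas1a*: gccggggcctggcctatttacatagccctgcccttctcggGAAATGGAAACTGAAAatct
*Oas3*: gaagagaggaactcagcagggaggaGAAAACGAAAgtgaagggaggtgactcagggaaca
*Slfn5*: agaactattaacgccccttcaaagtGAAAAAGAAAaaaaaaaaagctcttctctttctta
The windows lie at chr10:128106120-128106179, + strand (*Stat2*), chr19:34618179-34618238, + strand (*Ifit1*), chr19:34560782-34560841 and chr19:34585178-34585237, + strand (*Ifit3*), chr4:156285307-156285366, - strand (*Isg15*), chr12:26506537-26506596, - strand (*Rsad2*), chr5:121045589-121045648, - strand (*Oas1a*), chr5:120915765-120915824, - strand (*Oas3*) and chr11:82842748-82842807, + strand (*Slfn5*). The window of *Ifit3* occurs at 2 places because that of *Ifit3b* is identical to it. *Ifit1* holds 2 cores in its window, *Isg15* holds 3 that overlap, and *Oas1a* holds 2 that overlap. *Slfn5* carries the core without a C after it and was not called in any comparison, so that the 10-base core alone does not separate the members that rose. The 14 members with the C were all called higher in LPS lungs. Members with neither form, such as *Irf7*, *Oasl1* and *Ifi44*, were called higher there too.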

How the data were processed

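The authors filtered reads with FastQC 0.11.9 and Trim Galore, aligned them to GRCm39 with HISAT2 2.2.1, counted them per gene with featureCounts 2.0.1 and deposited raw counts for 1 library per mouse. The annotation release, strand setting and handling of multi-mapping reads are not stated, so that values of paralogs and overlapping genes are uncertain. Of 55416 identifiers 54749 received a symbol and coordinates from the GENCODE annotation of GRCm39. In R 4.3.3, edgeR 4.0.16 was run with TMM, filterByExpr and the quasi-likelihood F test on all 8 libraries with 1 group factor (5 residual degrees of freedom), with Benjamini-Hochberg adjustment over 18560 genes. Log2 CPM used a prior count of 2, and SE is the size of the log2FC divided by the square root of F. DESeq2 1.42.0, other scalings, filters and criteria, and leaving out mice were alternatives. The members and lists were chosen with earlier results of these data known, and 1 gene of the lists of other pathway genes is not reported here. Values per mouse are given, by role, for the 2 largest and the smallest absolute log2FC in LPS lungs, members not called there, members called in dual-treated lungs, and the 3 with the largest difference between the dual-treated mice, and from the lists of other pathway genes for up to 3 called genes per direction and comparison.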

Additional observations from a re-analysis of the deposited data

How the results depend on the processing

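Over the alternatives, 744 of 752 values of the 47 members kept direction and side of the criterion in LPS against control lungs, 710 of 752 in dual-treated against control lungs and 696 of 752 in dual-treated against LPS lungs. The counts of 0 were 0 under every alternative, and 40 to 45 members were called higher in LPS lungs. Over the same alternatives 2175 to 6046 of all genes were called higher there. In dual-treated lungs 32 members were called higher with no fold criterion (1695 of all genes) and 9 with a test against a fold change of 2 (333). Each is a change of the criterion itself. Without 1 control or LPS mouse 17 to 22 were (705 to 996 of all genes). In dual-treated against LPS lungs 38 and 23 members were called lower with these criteria (5085 and 1296 of all genes). With library size only 24 were (1735 of all genes), and without 1 control or LPS mouse 26 to 30 (2372 to 2621 of all genes). With library size only the median of all genes moved to -0.29 in LPS lungs and 0.38 in dual-treated against LPS lungs, where 32.5% and 74.7% of calls were higher in place of 45.6% and 58.5%, and with upper-quartile factors it moved to -0.10 and 0.14. Relative to all genes, the members' medians were 2.88 and -1.41 with library size only and 2.89 and -1.42 with upper-quartile factors, beside 2.90 and -1.43 with TMM. The members' median in dual-treated against LPS lungs was -1.03 with library size only and -1.71 to -1.17 when 1 mouse was left out, and against control 0.51 to 1.155. Scores with library size only were 4.655, 4.778 and 4.607 in control mice 1, 2 and 4 and 7.343 in LPS mouse 1, and minus control 2.663 and 2.412 in LPS mice 1 and 6. The 11-base ISRE was in 0.944% of all promoters.

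Values that reversed belonged to genes not called in that comparison. In LPS against control lungs *Ifi27* was 0.002335 with RLE factors, 0.002374 with DESeq2, 0.131 without LPS mice 6 and 7 and -0.1247 to 0.1046 when 1 mouse was left out, and *Slfn5* was 0.09672 without LPS mice 6 and 7. There *Ifnar1* was -0.2374 with library size only, -0.0451 with upper-quartile factors, -0.0341 without LPS mice 6 and 7 and -0.001764 to 0.1331 when 1 mouse was left out. In dual-treated against control lungs *Isg20* was 0.03465 with library size only and 0.005348 with the compared groups alone. When 1 mouse was left out, the range was -0.1609 to 0.1417 for *Isg20*, -0.1759 to 0.5747 for *Ifit2*, -0.8674 to 0.9793 for *Rsad2*, -0.6332 to 0.178 for *Cmpk2*, -0.3298 to 0.07337 for *Ifi27* and -0.02834 to 0.06825 for *Tor3a*. In dual-treated against LPS lungs *Ddx60* was -0.009459 with RLE factors, -0.009614 with DESeq2 and -0.0334 without LPS mice 6 and 7, and *Adar* was 0.003218 with no filter on low counts and 0.00206 with at least 10 counts in every library. With library size only the values were 0.3039 for *Adar*, 0.1508 for *Oas1g*, 0.1904 for *Samd9l*, 0.07087 for *Epsti1*, 0.283 for *Ifi27* and 0.1465 for *Slfn5*, and with upper-quartile factors 0.062 for *Adar* and 0.03347 for *Ifi27*. When 1 mouse was left out, the range there was -0.2761 to 0.2629 for *Ddx60*, -0.2562 to 0.1311 for *Adar*, -0.2921 to 0.00967 for *Samd9l*, -0.2932 to 0.11 for *Ifi27* and -0.5932 to 0.08187 for *Slfn5*. The cause was not tested.

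Without 1 dual-treated mouse, the lone mouse is assumed to vary like the other groups, as is LPS mouse 1 without mice 6 and 7. The counts of groups that do not overlap are given with TMM and all mice, where the share of all genes stands beside them. No paired analysis was possible because the mouse numbers do not pair mice between the groups. A gene at 3 counts stands at 0.132 to 0.178 CPM, which limits what can be said of the interferon ligands, and this floor covers counting error only. The Wilson interval of the motif share treats the 37 members as independent draws, which a chosen list is not.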
